A study of Mus musculus with 12 samples.

Results

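The genes described here are 6 STAT genes (Stat2, Stat3, Stat4, Stat5a, Stat5b and Stat6) and 3 genes of the JAK family of kinases (Jak1, Jak3 and Tyk2), 9 of the 55335 gene rows of the count tables. They were listed by name, and Stat4 was chosen by its higher RNA level in the libraries labelled knockout and set against its relatives, so its RNA values are given as a description without a test. The kinase gene Jak2 is given beside them. Thymocytes of 6-week-old mice kept under specific-pathogen-free conditions were compared between the genotypes labelled WT and miR-181a/b-1 KO, with 3 libraries of RNA-seq and 3 of ribosome footprints for each genotype, 12 libraries in 4 groups. All cells were pressed through a 70 µm strainer and put at once into buffer with cycloheximide at 0.1 mg per ml, an inhibitor that holds ribosomes on the mRNA, so the controls carried this treatment too. Ribosome footprinting sequences the stretches of mRNA that ribosomes shield from nuclease, and its reads therefore come mainly, though not only, from transcripts being translated. How the deletion was made, the strain and sex of the mice, and whether an RNA-seq and a footprint library share a mouse were not stated in the labels. The design text gives 3 mice of each genotype but no mouse for a library, and p-values measure the spread between these libraries.

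JAK kinases sit on the inner tails of cytokine receptors. When a cytokine draws its receptor chains together, the kinases phosphorylate the receptor and then a STAT protein, which pairs up, enters the nucleus and binds DNA as a transcription factor. In the thymus the pathway is best known for interleukin-7, whose receptor uses JAK1, JAK3 and the STAT5 proteins to keep early thymocytes alive, and STAT4 is best known in mature T and NK cells as the factor that interleukin-12 activates. The deleted genes encode mature microRNAs that repress mRNAs mostly by pairing through the seed, bases 2 to 8 of the microRNA. Levels of these mature microRNAs in KO cells were not measured here. The sequences of the main products of the deleted genes are shown, with the seed in capitals. Both are from RefSeq on build GRCm38.p6, with miR-181a-5p at chr1:137966468-137966490 and miR-181b-5p at chr1:137966650-137966673, plus strand.
mmu-miR-181a-5p: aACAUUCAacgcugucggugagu
mmu-miR-181b-5p: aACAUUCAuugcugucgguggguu
The seed ACAUUCA is shared by 4 mature mouse microRNAs in that table, those of miR-181a, b, c and d. No transcript sequences were used here, so matches to this seed in the STAT and JAK mRNAs were not searched.

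The libraries held 4479182 to 8180286 reads in genes for RNA-seq and 4069968 to 17859770 for footprints, the lowest being the third KO footprint library. In the footprint libraries, reads on Mir181a-1 stood at 148 ± 16.8 CPM (reads scaled to a common library total, with SD, n = 3) in WT. They stood at 0.828 ± 0.317 CPM in KO, with a log2 fold change of -7.47 (edgeR adjusted p = 2.24e-05), as the labels say. A microRNA gene is not translated, so these reads serve only as a check of the labels. In RNA-seq the same row had 2.81 ± 1.62 and 3.27 ± 1.59 CPM and does not check the labels, so the RNA-seq groups are called by their labels. The deposited counts are adjusted in a way the sources do not state. The deviations of same-numbered WT and KO libraries from their group means mirrored each other, with r of -0.98 to -0.96 over 9756 genes in RNA-seq and -0.99 to -0.98 over 8652 genes in footprints. Same-numbered libraries are thus not independent of each other, and p-values from the fit without a block, which treats them as independent, may be too small. Adjusted p-values from a fit with the replicate number as a block are also given where that fit ends the call of a gene, or the number of calls it leaves is given for a list. Reads, not cells, were counted, and fewer cells of a type cannot be told apart from less RNA per cell in any value below.

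Stat4 (ENSMUSG00000062939.11, chromosome 1) was at 19.7, 20.1 and 19.1 CPM in the RNA-seq libraries labelled WT and at 45.5, 45.0 and 46.8 CPM in those labelled KO. Every KO-labelled library lay above every WT-labelled one, and the libraries of each group lay close together. The means were 19.6 ± 0.473 and 45.8 ± 0.924 CPM, a fold of 2.33 and a log2 fold change of 1.22 (SE 0.06), which stayed between 1.20 and 1.24 when any 1 library was left out. Among the 9756 genes whose mean log2 CPM reached 3, 16 had a log2 fold change at least as high, Stat4 included. Stat4 was chosen by this rise, so a high rank was built into the choice and is a description only. The RNA reads behind these levels were 124, 144 and 139 in WT and 311, 190 and 375 in KO.

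Footprints were not used to choose Stat4. They stood at 45.5, 37.5 and 41.6 CPM in WT and at 82.2, 99.4 and 90.3 CPM in KO, and the lowest KO library was well above the highest WT library. Stat4 footprints rose from 41.5 ± 3.99 to 90.6 ± 8.60 CPM, a fold of 2.19 and a log2 fold change of 1.13 (SE 0.10, edgeR adjusted p = 0.00138 over all genes). The rise was called in 6 of 6 fits that left out 1 library, with log2 fold changes of 1.04 to 1.21, and in the fit with the replicate block (adjusted p = 0.000624). Of 8652 genes whose mean log2 CPM reached 3 in footprints, 28 had a change at least as high, Stat4 included. RNA and footprint libraries may be of the same mice, so the footprint result may share animals with the values that chose the gene. The footprint change minus the RNA change was -0.10 on the log2 scale (SE 0.13), a description with no test.

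**Figure D1:**
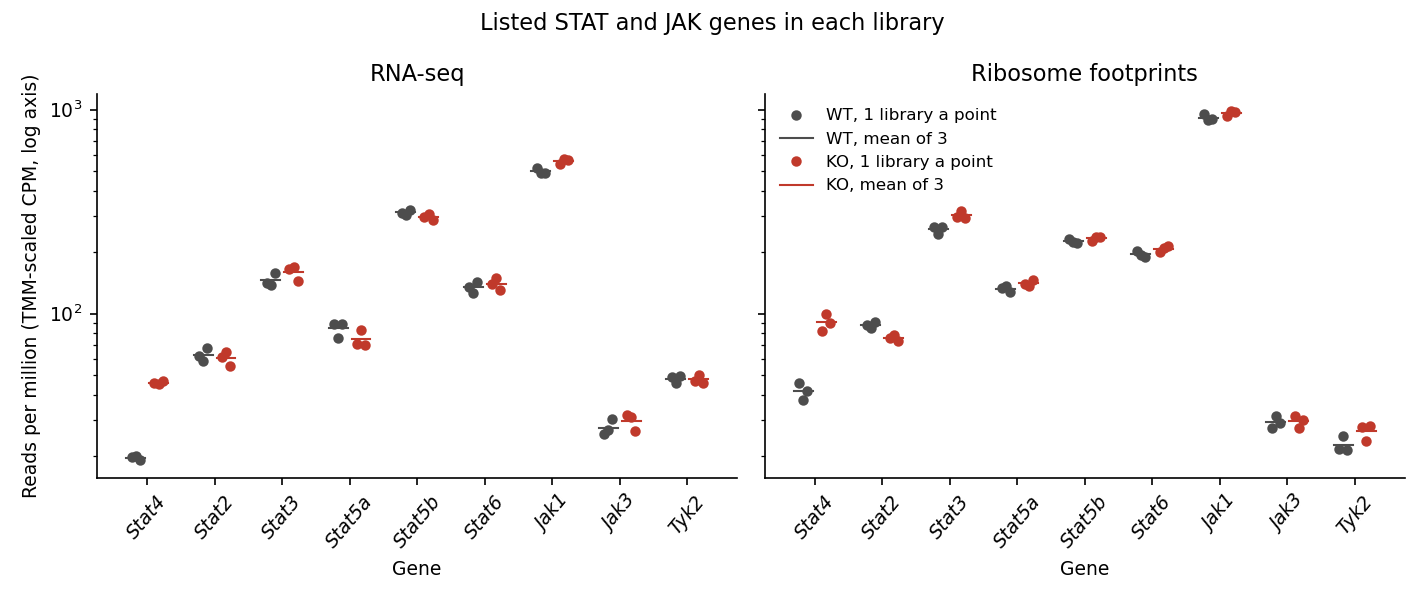
Level of the 9 listed genes in each library, as TMM-scaled CPM on a log axis, with RNA-seq on the left, footprints on the right, 1 point a library and a line at the mean of 3. Stat4 is the gene whose WT and KO points stand far apart in both panels, at 19.6 against 45.8 CPM in RNA-seq and 41.5 against 90.6 CPM in footprints.

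Stat4 made up a small part of the reads of the 6 listed STAT genes, and that part was larger in KO. Its share of their footprints was 4.69%, 4.07% and 4.45% in WT and 8.05%, 9.21% and 8.55% in KO, with means of 4.40% ± 0.316 and 8.60% ± 0.584. The groups did not overlap, and the exact two-sided permutation p was 0.1, the smallest that 3 against 3 libraries allow. This p treats the libraries as independent, which same-numbered ones are not. In RNA-seq the share was 2.59% ± 0.185 in WT and 5.90% ± 0.445 in KO. These are shares of reads, not of molecules, because longer transcripts give more reads. The summed RNA of these genes differed by less than the spread between libraries, at 761 ± 36.5 CPM in WT and 777 ± 42.6 CPM in KO. Their summed footprints were 943 ± 24.0 CPM in WT and 1052 ± 29.0 CPM in KO, and 901 ± 20.2 and 962 ± 20.6 CPM once Stat4 was left out.

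**Figure D2:**
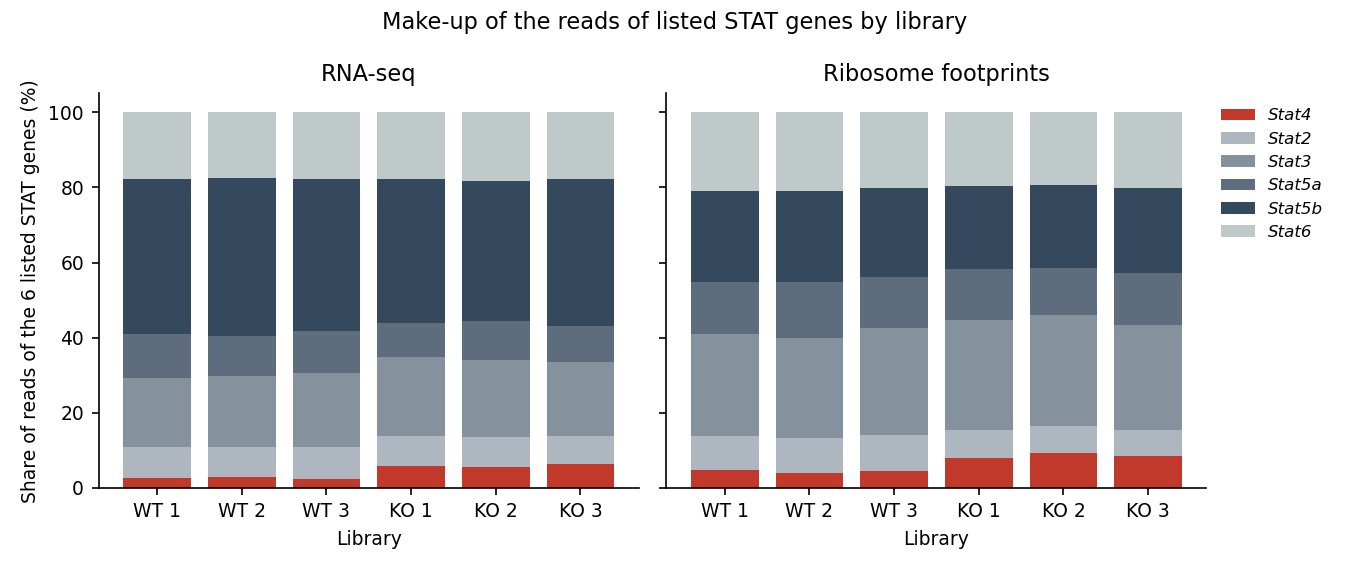
Share of each STAT gene in the reads of the 6 listed STAT genes, in percent, for each RNA-seq library (left) and footprint library (right). The Stat4 segment at the foot of each bar widens from 2.59% to 5.90% on average in RNA-seq and from 4.40% to 8.60% in footprints.

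Of the 8 other members, 0 were called in RNA by edgeR (adjusted p under 0.05) and 0 by DESeq2, and 1, Jak1, had an unadjusted p under 0.05. Over all 13652 genes tested, 6.91% were called in RNA by edgeR and 3.9% by DESeq2, and 23.8% had an unadjusted p under 0.05. Their log2 fold changes ran from -0.18 (Stat5a) to 0.16 (Jak1), with a median of 0.02 beside -0.00053 over all genes tested, and their adjusted p-values from 0.133 to 0.935. In footprints, 3 of the 9 members were called by edgeR, Stat4 and Stat3 higher and Stat2 lower in KO, where 17.6% of 13509 genes tested were called, 9.25% higher and 8.34% lower. With the replicate block, Stat4 alone of the 9 was called, against 3.02% of all genes. The WT and KO libraries did not overlap for 4 of 9 members in footprints (Stat2, Stat3, Stat4 and Stat5a), where 38.1% of all genes tested had no overlap. In RNA-seq they did not overlap for 1 of the 8 members other than Stat4 (Jak1), where 30.9% of all genes tested had no overlap.

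Stat3 (ENSMUSG00000004040.16, chromosome 11), the STAT activated by interleukin-6, interleukin-10 and related cytokines, was the other member with more footprints in KO. Footprints were at 265, 247 and 266 CPM in WT and at 297, 317 and 294 CPM in KO, without overlap. They rose from 259 ± 10.8 to 303 ± 12.9 CPM, a log2 fold change of 0.23 (SE 0.05, edgeR adjusted p = 0.0244). The call ended with the replicate block (adjusted p = 0.229) and in 5 of 6 fits without 1 library, holding only without the third KO library (adjusted p 0.0481 to 0.0811 over the 6 fits). Stat3 RNA was at 141, 138 and 158 CPM in WT and at 165, 169 and 144 CPM in KO, with 1 KO-labelled library inside the WT range. The RNA difference of 0.13 on the log2 scale (SE 0.09) did not pass the test (adjusted p = 0.432).

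Stat2 (ENSMUSG00000040033.16, chromosome 10), which acts with IRF9 downstream of type I interferons, was the member with fewer footprints in KO. Its footprints were at 88.1, 85.3 and 90.5 CPM in WT and at 76.3, 78.6 and 73.6 CPM in KO, every KO library below every WT library. They fell from 88.0 ± 2.62 to 76.2 ± 2.48 CPM, a log2 fold change of -0.20 (SE 0.04, edgeR adjusted p = 0.0224). DESeq2 gave an adjusted p of 0.147 and the replicate block one of 0.292, and the call held only without the second WT library among the 6 fits that left out 1 (adjusted p 0.0444 to 0.0926). Stat2 RNA was at 62.2, 58.7 and 67.5 CPM in WT and at 61.1, 65.1 and 55.4 CPM in KO, with overlapping groups and a log2 difference of -0.06 (SE 0.09, adjusted p = 0.730).

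Stat5a and Stat5b encode near-identical factors that act downstream of interleukin-2, interleukin-7 and interleukin-15, and lie next to each other and to Stat3 on chromosome 11. Stat5a RNA (ENSMUSG00000004043.14) was at 88.9, 76.0 and 88.7 CPM in WT and at 70.9, 83.3 and 70.2 CPM in KO, with a log2 difference of -0.18 (SE 0.10, adjusted p = 0.314). Stat5a footprints were at 134, 136 and 127 CPM in WT and at 139, 137 and 146 CPM in KO. The footprint groups did not overlap, but the distance between them was small, and the log2 difference of 0.08 (SE 0.04) did not pass the test (adjusted p = 0.231). Stat5b RNA (ENSMUSG00000020919.11) was at 313, 306 and 323 CPM in WT and at 298, 306 and 286 CPM in KO, with a log2 difference of -0.08 (SE 0.05, adjusted p = 0.414). Stat5b footprints were at 233, 223 and 221 CPM in WT and at 227, 238 and 238 CPM in KO, overlapping, with a log2 difference of 0.05 (SE 0.04, adjusted p = 0.400). Reads that aligned to several places were kept out of the gene rows, so stretches in which the pair is identical are missing from both.

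Stat6 (ENSMUSG00000002147.18, chromosome 10), the STAT of interleukin-4 and interleukin-13, had overlapping groups in both assays. Its RNA was at 135, 127 and 142 CPM in WT and at 139, 149 and 130 CPM in KO (log2 difference 0.05, SE 0.07, adjusted p = 0.752). Its footprints were at 204, 195 and 189 CPM in WT and at 199, 209 and 214 CPM in KO (log2 difference 0.08, SE 0.04, adjusted p = 0.266).

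Among the kinases, Jak1 (ENSMUSG00000028530.14, chromosome 4), which serves the receptors of the interleukin-2, interleukin-6 and interferon families, gave the most reads. Jak1 made up 70.7% ± 0.450 of the RNA reads and 89.1% ± 0.608 of the footprints of the 4 JAK genes in WT. Its RNA was at 520, 491 and 489 CPM in WT and at 539, 573 and 567 CPM in KO, all KO-labelled libraries above all WT-labelled ones. The log2 difference of 0.16 (SE 0.05) did not pass the test over all genes (adjusted p = 0.133). Jak1 footprints were at 946, 890 and 896 CPM in WT and at 927, 984 and 975 CPM in KO, overlapping, with a log2 difference of 0.08 (SE 0.04, adjusted p = 0.258).

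Jak3 (ENSMUSG00000031805.17, chromosome 8), which pairs with the common gamma chain of the interleukin-2 family, was at 25.6, 26.8 and 30.4 CPM in WT RNA and at 31.9, 31.0 and 26.4 CPM in KO RNA (log2 difference 0.10, SE 0.11, adjusted p = 0.619). Its footprints were at 27.6, 31.4 and 29.0 CPM in WT and at 31.5, 27.6 and 30.2 CPM in KO, the same range in both groups (log2 difference 0.01, SE 0.08, adjusted p = 0.978). Tyk2 (ENSMUSG00000032175.11, chromosome 9) pairs with JAK2 on the interleukin-12 receptor, where STAT4 is phosphorylated. Tyk2 RNA was at 48.6, 45.9 and 49.3 CPM in WT and at 47.0, 50.2 and 45.9 CPM in KO (log2 difference -0.01, SE 0.06, adjusted p = 0.935). Tyk2 footprints were at 21.8, 25.2 and 21.4 CPM in WT and at 27.7, 23.7 and 28.2 CPM in KO, with 1 KO library inside the WT range (log2 difference 0.19, SE 0.10, adjusted p = 0.226).

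Jak2, the kinase that pairs with TYK2 on the interleukin-12 receptor, was not called in either assay. Jak2 differed by 0.07 in RNA (SE 0.10, adjusted p = 0.724) and by 0.03 in footprints (SE 0.04, adjusted p = 0.676).

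**Figure D3:**
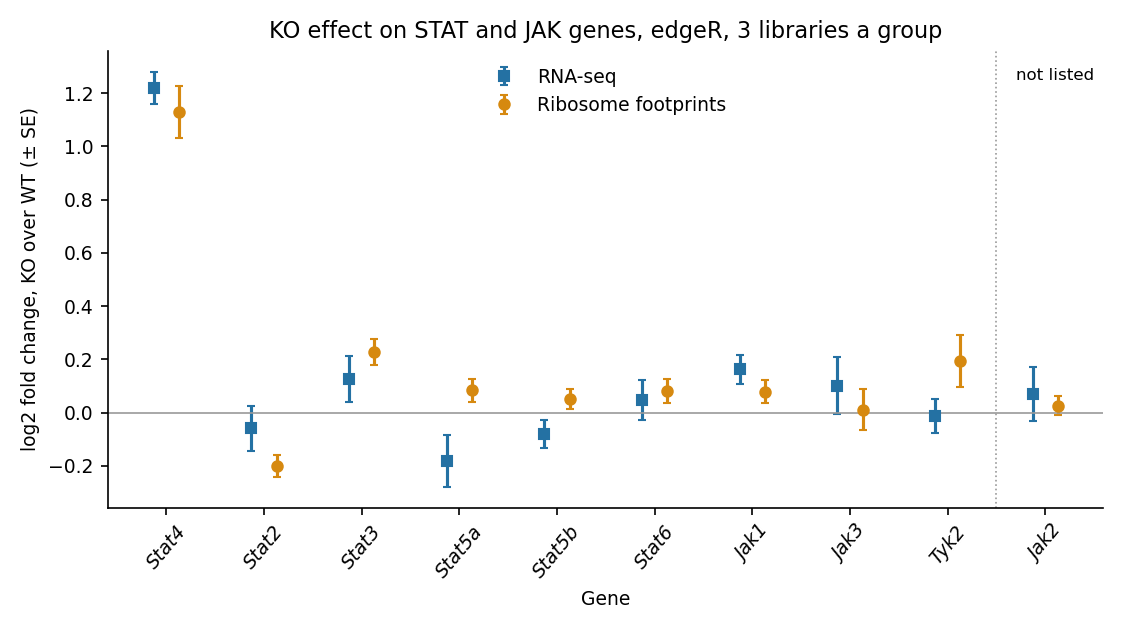
Log2 fold change of KO over WT with its standard error (edgeR, 3 libraries a group) for the 9 listed genes and, right of the dotted line, Jak2, in RNA-seq (squares) and footprints (circles). Stat4 stands at 1.22 in RNA-seq and 1.13 in footprints, and the other listed genes lie between -0.20 and 0.23.

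Pseudogenes and non-coding genes stand next to Stat4 in the RefSeq gene order, Gm33795 (not used here), Gm8419 and Gm8420 before it and Gm3940 and Gm31812 after it. The 4 of these that had a row (Gm8419, Gm8420, Gm3940 and Gm31812) had at most 10 reads in any group of 3 libraries. Gm3940 and Gm31812 overlap Stat4 in RefSeq, and the strand setting of the counting was not stated. Other members overlap neighbours too: Stat2 overlaps Apof, Stat3 overlaps Gm46295, Stat6 overlaps Nab2 and Gm30989, Jak3 overlaps Insl3, and Jak1 overlaps Raver2, Gm24468, Gm19063 and Gm52754. Reads in shared stretches could belong to either gene.

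RefSeq gives Stat4 a pair of start sites, and the 250 bases before each are shown because Stat4 is the member that moved most. CpG dinucleotides are in capitals, since these windows held fewer of them than those of the relatives. Both are on the plus strand of GRCm38.p6, the first at chr1:51986898-51987147 and the second at chr1:52007990-52008239.
Stat4 first start: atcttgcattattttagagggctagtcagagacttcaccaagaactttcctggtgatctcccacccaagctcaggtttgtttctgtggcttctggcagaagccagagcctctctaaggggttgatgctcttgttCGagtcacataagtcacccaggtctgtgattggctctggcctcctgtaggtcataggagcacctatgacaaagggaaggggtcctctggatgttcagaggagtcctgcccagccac
Stat4 second start: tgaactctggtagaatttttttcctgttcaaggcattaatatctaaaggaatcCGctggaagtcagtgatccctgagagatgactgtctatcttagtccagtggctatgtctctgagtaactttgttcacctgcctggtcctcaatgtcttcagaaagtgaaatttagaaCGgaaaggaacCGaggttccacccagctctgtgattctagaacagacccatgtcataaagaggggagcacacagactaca
Counted from 250 bases before to 50 after the start, the Stat4 windows held 2 and 4 CpG and 50.7% and 46.0% G or C. The other 11 windows of the families held 5 to 50 CpG, from 5 at one Stat5a start to 50 at one Stat5b start, and the median of all 32851 windows was 7 CpG and 52.7% G or C. The palindrome that STAT dimers are known to bind was searched on both strands, which for a palindrome are the same letters. TTCNNNGAA was in 0 of the 13 family windows and in 8.30% of all windows. TTCNNNNGAA was in 1 of 13, as TTCCCTAGAA in the Stat2 window, and in 6.95% of all windows.

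The interaction of genotype and assay tests whether footprints changed by another factor than RNA. Of the 8 members other than Stat4, 0 were called by edgeR and 0 by DESeq2, with adjusted p-values of 0.294 to 0.915, and 1, Stat5a, had an unadjusted p under 0.05. Of all 11854 genes tested, 0.211% were called by edgeR and 0.388% by DESeq2, and 14% had an unadjusted p under 0.05. Stat5a had the largest difference, with a footprint change 0.27 above its RNA change on the log2 scale (SE 0.11, edgeR adjusted p = 0.294). Stat2 had the lowest, at -0.14 (SE 0.10, adjusted p = 0.554).

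The members differed far more from each other in footprints per RNA than between genotypes. Levels of different genes were compared only as this ratio within a gene, and each log2 ratio is given relative to the median of 11854 genes. Footprints lie in coding sequence and RNA-seq reads in the whole transcript, and coding lengths were not used. An order of genes by this ratio can thus also follow the coding share of their transcripts, and is not one of translation alone. Libraries of the same number were divided, although the labels do not say that they share a mouse. In WT, Stat4 had the highest ratio of these genes, at 1.35, 1.07 and 1.27 (mean 1.23 ± 0.15, above 84.3% of genes). Jak1 followed at 1.04 ± 0.01 and Stat3 at 1.00 ± 0.08. The lowest Stat4 value, 1.07, lay just above the highest Jak1 value, 1.04, and just below the highest of Stat3, so Stat4 was not apart from both beyond the spread, and Jak1 and Stat3 overlapped. Stat5a (0.82 ± 0.17), Stat6 (0.71 ± 0.12) and Stat2 (0.66 ± 0.06) came next, and neighbours in the order from Stat3 to Stat2 overlapped. Jak3 (0.26 ± 0.16), Stat5b (-0.30 ± 0.06) and Tyk2 (-0.89 ± 0.19) followed without overlap, and Tyk2 lay above only 23.9% of genes. Jak2 (-0.96) was lower still and overlapped Tyk2. The adjacent pair Stat5a and Stat5b thus stood on opposite sides of the median gene. In KO the Stat4 ratio was 1.12 ± 0.14, within the spread of the WT values.

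**Figure D4:**
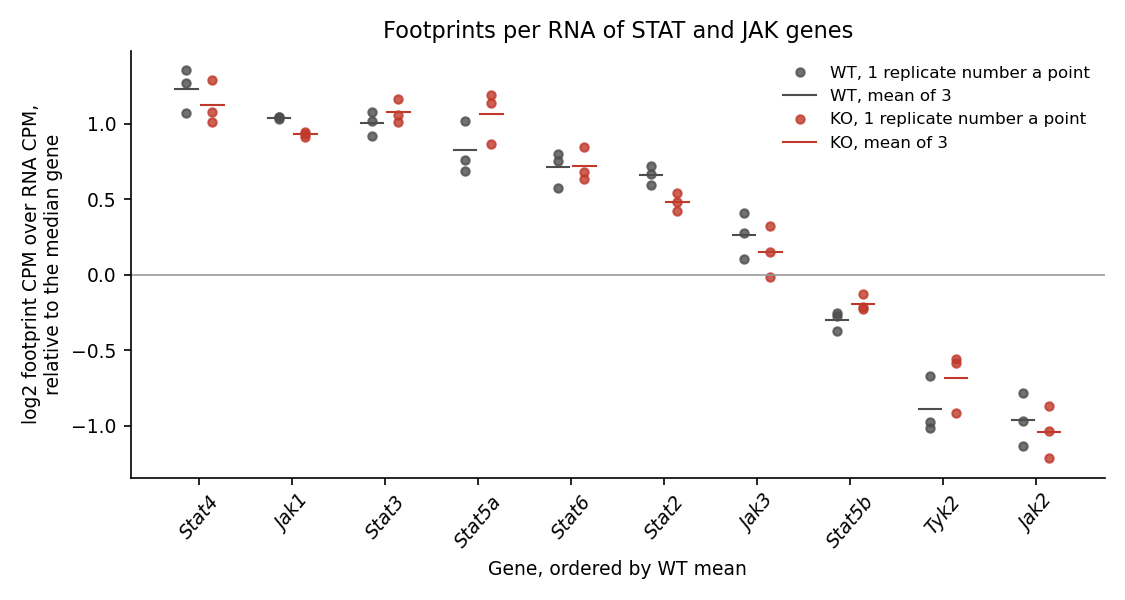
Log2 ratio of footprint CPM to RNA CPM, relative to the median of 11854 genes, for the 9 listed genes and Jak2, ordered by the WT mean, with 1 point for each replicate number and a line at the mean of 3. Ratios run from 1.23 for Stat4 to -0.96 for Jak2 in WT, and WT and KO points of a gene lie close together beside that range.

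The genes whose log2 CPM over the 12 libraries, centred within each assay, followed Stat4 most closely among 8099 genes were Gm37632 (Pearson r 0.994), Gm14085 (0.994), Scml4 (0.991), Rasgrp4 (0.991) and 2510009E07Rik (0.990). All libraries share the contrast of WT with KO, so these r values mostly rank genes by how cleanly the genotypes separate, and they are a description. Among the members, Jak1 (0.85) and Stat3 (0.75) were closest to Stat4 and Stat2 (-0.62) was farthest. Stat5b (-0.13), Jak3 (0.22) and Stat5a (-0.25) showed little likeness.

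Cytokine receptor genes, which bring the kinases and the STAT proteins together, moved in both directions. Of 24 receptor genes, 23 were tested in RNA and 3 were called higher and 5 lower in the KO-labelled libraries, with a median log2 fold change of -0.02, where 6.91% of all genes tested were called. In footprints 24 were tested and 8 were called higher and 5 lower, with a median of 0.06 beside -0.0090 over all genes, of which 17.6% were called. With the replicate block 2 were called in RNA (Il2ra and Il6ra), against 0.806% of all genes, and 7 in footprints, against 3.02% (Il12rb2, Ifngr1, Il9r, Il2ra, Il6ra, Lifr and Il2rb). For translation 0 were called by edgeR and 0 by DESeq2, against 0.211% and 0.388% of all genes, with 2 at an unadjusted p under 0.05, against 14%.

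Il12rb2 encodes the signalling chain of the interleukin-12 receptor, the chain that STAT4 docks on. Its footprints were at 17.6, 20.5 and 17.3 CPM in WT and at 31.7, 26.9 and 31.9 CPM in KO, without overlap. They rose by 0.68 on the log2 scale (SE 0.10, edgeR adjusted p = 0.00738, and 0.0327 with the replicate block). Its RNA was at 9.06, 12.1 and 9.92 CPM in WT and at 18.0, 13.3 and 16.8 CPM in KO, also without overlap, but the log2 difference of 0.64 did not pass the test (SE 0.15, adjusted p = 0.0586). The partner chain Il12rb1, named after its values were seen, had 7.44 ± 0.552 footprint CPM in WT and 8.26 ± 0.647 in KO (log2 difference 0.17, adjusted p = 0.292). Ifngr1, a chain of the interferon-gamma receptor, rose in footprints from 722 ± 3.93 to 1138 ± 8.32 CPM, a log2 fold change of 0.66 (SE 0.03, adjusted p = 0.000185, and 0.00240 with the block). Ifngr1 RNA rose by 0.59 (SE 0.05, adjusted p = 0.00312), a call that the block ended (adjusted p = 0.0646).

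Il2ra, the alpha chain of the interleukin-2 receptor and a marker of early thymocytes, rose by 0.85 in RNA (SE 0.10, adjusted p = 0.00675) and by 0.38 in footprints (SE 0.03, adjusted p = 0.00159). Il9r footprints rose by 1.01 (SE 0.12, adjusted p = 0.00359), Il10rb footprints by 0.83 (SE 0.16, adjusted p = 0.0174), and Il15ra rose by 0.80 in RNA (SE 0.15, adjusted p = 0.0302) and 0.63 in footprints (SE 0.13, adjusted p = 0.0196). The calls of Il10rb (adjusted p = 0.0582) and Il15ra (0.243 in RNA and 0.324 in footprints) ended with the block. Il6ra, the interleukin-6 receptor chain upstream of STAT3, fell by 1.33 in RNA (SE 0.13, adjusted p = 0.00457) and by 1.10 in footprints (SE 0.06, adjusted p = 0.000235). Its footprints were at 22.7, 22.7 and 21.9 CPM in WT and at 10.4, 10.4 and 11.0 CPM in KO.

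Il2rb, the beta chain for interleukin-2 and interleukin-15, fell by 1.08 in RNA (SE 0.20, adjusted p = 0.0316, and 0.0562 with the block) and by 0.65 in footprints (SE 0.09, adjusted p = 0.00598). Il10ra, the ligand-binding chain for interleukin-10, fell by 0.83 and 0.64 (adjusted p = 0.00299 and 0.00733), and the block ended both calls (0.0636 and 0.115). Lifr fell by 0.71 and 0.69 in RNA and footprints (adjusted p = 0.0311 and 0.00302, the first 0.141 with the block). Il4ra, the receptor chain upstream of STAT6, fell by 0.43 in RNA (adjusted p = 0.0315, and 0.257 with the block), and Osmr footprints fell by 0.56 (adjusted p = 0.0372, and 0.387 with the block).

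**Figure D5:**
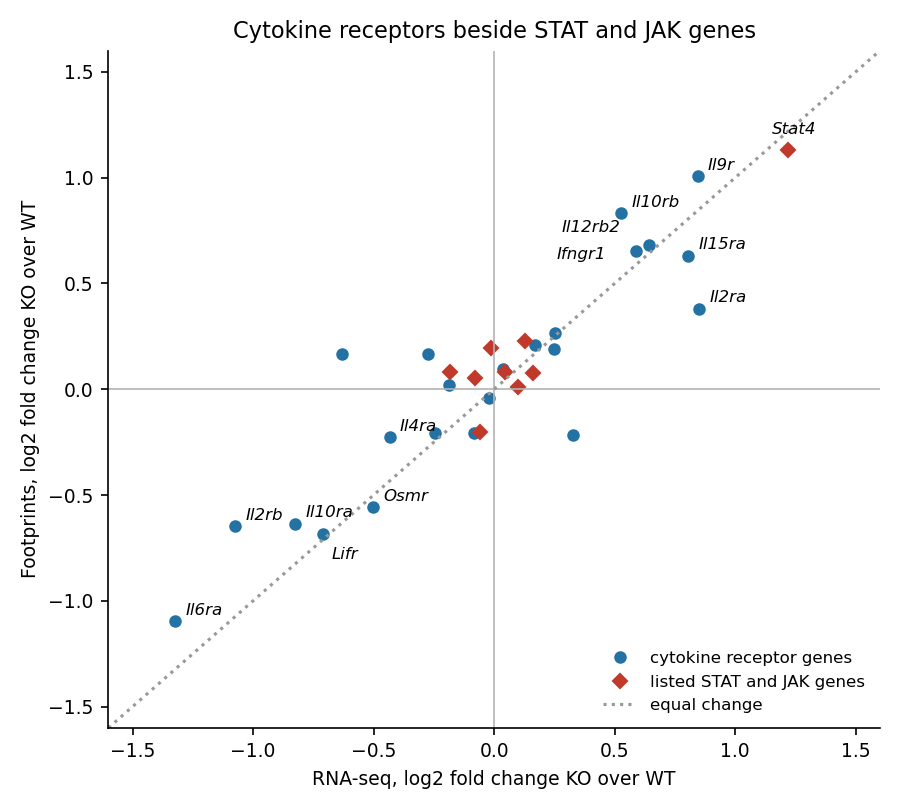
Log2 fold change of KO over WT in RNA-seq (horizontal) against footprints (vertical) for the 23 cytokine receptor genes tested in both assays (circles) and the 9 listed STAT and JAK genes (diamonds), with a dotted line where both changes are equal. Stat4 lies at 1.22 and 1.13 at the upper right, Il6ra lies at the lower left, and the other listed genes crowd around 0.

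The cytokines themselves were scarcely read. Of 19 cytokine genes 1 was tested in RNA and 3 in footprints, and 0 were called in either by edgeR or DESeq2. Over all genes tested, edgeR and DESeq2 called 6.91% and 3.9% in RNA and 17.6% and 9.24% in footprints. An unadjusted p under 0.05 was reached by 0 of them, against 23.8% of all genes in RNA and 33.1% in footprints. So few cytokine genes were tested that these counts of 0 say little. Ifng, the cytokine gene that STAT4 is best known to switch on, had 1 RNA read over the 3 WT libraries and 0 over the 3 KO libraries, and 7 and 3 footprint reads. Il12b, a subunit of interleukin-12, had 138 footprint reads in WT and 78 in KO. These read counts, like those of Ifng, are not scaled for the unequal library sizes and do not compare the genotypes. Il12b was tested in footprints and was not called. Ifng, singled out with Il12b for its place beside STAT4, had too few reads to be tested in either assay.

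Inhibitors of the pathway were 18, among them the SOCS proteins that block the kinases. In RNA 0 of 18 were called by edgeR and 0 by DESeq2, with 4 at an unadjusted p under 0.05, where 23.8% of all genes tested had one. In footprints 17 were tested, 1 was called higher (Ptprc, by 0.16) and 3 lower, a share near the 17.6% of all genes called, and the block left 0 of these calls. Socs7 fell by 0.80 (SE 0.20, edgeR adjusted p = 0.0375, and 0.0546 with the block), while Pias4 (-0.27) and Ptpn1 (-0.20), named with Ptprc after their values were seen, were the other genes called lower. With the block the adjusted p was 0.230 for Pias4, 0.323 for Ptpn1 and 0.393 for Ptprc.

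Of 20 genes known to be induced by STAT factors, 16 were tested in RNA, and 0 were called higher and 2 lower, against 6.91% of all genes called. Ccnd2, a cyclin gene downstream of STAT5, fell by 0.60 in RNA (SE 0.10, edgeR adjusted p = 0.0219, and 0.100 with the block). Il18r1, a receptor gene downstream of STAT4, fell by 0.56 in RNA (SE 0.10, adjusted p = 0.0351, and 0.518 with the block) while Stat4 itself was higher. In footprints 18 were tested, with 2 called higher and 6 lower by edgeR, against 9.25% and 8.34% of all genes. DESeq2 called 3 of the 18, against 9.24% of all genes. The median log2 fold change of the 18 was -0.20 beside -0.0090 over all genes tested. Gzmb, which encodes granzyme B of cytotoxic cells, was lowest, at 1.55 ± 0.107 CPM in WT and 0.524 ± 0.254 in KO (log2 fold change -1.37, adjusted p = 0.0132, and 0.178 with the block). Mcl1, a survival gene named after its values were seen, was the 1 call left with the block, with a rise of 0.46 (SE 0.06, adjusted p = 0.00591, and 0.0308 with the block).

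Markers of 8 cell types were read beside these genes, with the genes called named after their values were seen. Of 6 markers of NKT and innate-like T cells, 3 were tested in RNA and all 3 were called lower, where 6.91% of all genes were called (Zbtb16 by -1.71, Il2rb by -1.08, Nkg7 by -1.04 on the log2 scale), and the block ended these calls (adjusted p = 0.152, 0.0562 and 0.246). In footprints 6 were tested and 4 called lower, where 17.6% of all genes were called, and the block left Il2rb, against 3.02% of all genes. The summed level of the 6 was 43.4 to 60.1 CPM in WT RNA and 19.1 to 29.4 CPM in KO RNA, and 66.6 to 71.4 and 41.0 to 43.6 CPM in footprints.

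The 6 genes of double-negative thymocytes summed to 98.9 to 106 CPM in WT RNA and 132 to 146 CPM in KO RNA, but most of the difference was Il2ra, at 53.1 and 95.5 CPM, which is also in the receptor list. The list's median log2 fold change was -0.13 in RNA and -0.30 in footprints, and Ptcra was called lower in footprints (-0.37, adjusted p = 0.0293, and 0.155 with the block). The 8 genes of double-positive thymocytes, the bulk of the thymus, summed to 20141 to 20945 CPM in WT footprints and 19370 to 20119 CPM in KO footprints. Their RNA sums overlapped, at 11120.8 to 12358.8 CPM in WT and 10523.4 to 11388.5 CPM in KO. The lower footprint sum came from Rag1, at 9951 and 8068 CPM (log2 fold change -0.30, adjusted p = 0.00866, and 0.116 with the block). Cd4 was called higher in footprints (0.57, adjusted p = 0.00335), and the list's median there was 0.08. Markers of mature single-positive thymocytes summed to 1121 to 1218 CPM in WT footprints and 1291 to 1392 CPM in KO footprints. In footprints 2 of 6 were called higher, against 17.6% of all genes called, and the block left 1, against 3.02%. In RNA, by contrast, 3 of 6 were called lower, against 6.91% of all genes called, and the block left 0, against 0.806%.

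B cell markers summed to 237 to 271 CPM in WT RNA and 287 to 330 CPM in KO RNA. In footprints their sums overlapped, at 292 to 366 CPM in WT and 345 to 441 CPM in KO. Cd79b was called higher in footprints (0.48, adjusted p = 0.00416, and 0.0466 with the block). Erythroid markers summed to 76.0 to 90.9 CPM in WT RNA and 46.6 to 58.4 CPM in KO RNA, with Hbb-bs called lower in RNA and Alas2 in footprints. The erythroid footprint sums overlapped, at 40.7 to 75.6 CPM in WT and 34.8 to 74.1 CPM in KO. Markers of thymic epithelium and stroma summed to 29.5 to 32.8 CPM in WT RNA and 22.3 to 25.2 CPM in KO RNA, with Krt5 called lower in RNA and Epcam in footprints. The stromal footprint sums overlapped, at 93.6 to 111.8 CPM in WT and 85.4 to 111.7 CPM in KO. The block ended the erythroid and stromal calls. Of 6 myeloid and dendritic markers, 6 were tested in RNA and 5 in footprints, and 0 were called by edgeR or DESeq2 in either assay. Over all genes tested, edgeR and DESeq2 called 6.91% and 3.9% in RNA and 17.6% and 9.24% in footprints. An unadjusted p under 0.05 was reached by 0 of these markers, against 23.8% of all genes in RNA and 33.1% in footprints. With so few genes a count of 0 says little. The summed level of the 6 was 59.9 to 68.2 CPM in WT RNA and 58.5 to 67.6 CPM in KO RNA. The part of these cell types in the levels of Stat4, its receptors and the genes induced by STAT factors was not tested.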

How the data were processed

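Thymocyte RNA-seq and ribosome footprint libraries were sorted by the assay and genotype that each title gives, 3 libraries in each of 4 groups. The authors deposited 1 table of whole-number read counts per Ensembl gene for each assay, named as adjusted, with 55335 gene rows, and per the file headers the row names of htseq-count for unassigned reads. Per the submitters' processing notes FastQC, Bowtie2 2.5.1, STAR 2.7.10a, HTSeq 2.0.3 and DESeq2 1.40.2 were used. The build, gene models and strandedness behind the counts are not stated in the labels or headers. Further deposited tables hold the authors' own KO against WT log2 fold changes and p-values, which were not used here for values, and 12 columns of per-library values in them were left out.

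Unassigned rows were left out of library sizes: gene rows held 27.0% to 28.5% of RNA-seq reads and 72.3% to 73.1% of footprint reads. Symbols were matched by gene identifier, with 181 rows unmatched. Counts were tested with edgeR 4.0.16 (R 4.3.3): TMM scaling, filterByExpr with a minimum count of 10, quasi-likelihood F-test of KO against WT within each assay, and of the interaction of genotype and assay over 12 libraries. P-values were adjusted over all genes tested (Benjamini-Hochberg), with calls under 0.05. CPM are TMM-scaled, and log2 ratios of footprints to RNA use a prior of 0.5 CPM. The fits were tested on simulated data. Alternatives were RLE scaling, DESeq2 1.42.0, no filter, a threshold of 0.1, a replicate block, a joint fit and leaving out each library.

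The members and gene lists were chosen with earlier results of these data known. Named genes are the members and Jak2, of the pathway lists the called genes with the 12 largest changes in each assay, the 3 neighbours on each side of Stat4, the 5 genes most like Stat4 (average log2 CPM of at least 3 in both assays) and Mir181a-1. A gene that this rule names is not reported here.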

Additional observations from a re-analysis of the deposited data

How the results depend on the processing

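The count of members called in footprints, 3 in the fit reported, was 1 with the replicate block and 1 in the joint fit of 12 libraries, and 1 to 2 when 1 library was left out, with Stat4 called each time. Same-numbered libraries deviate in opposite directions and are not independent, so p-values without a block may be too small, and which fit suits the counts depends on how they were adjusted, which is not stated. The block took genes called in RNA from 943 to 110, in footprints from 2376 to 408 and for translation from 25 to 2 within each assay (17 with the number taken as the mouse). DESeq2 called 532 genes in RNA, 1248 in footprints and 46 for translation. The counts of 0 members in RNA and for translation held in each setting run. Of 376 KO effects of members recomputed under other settings, 353 kept direction and call. Of the others 15 lost a call, all of Stat2 or Stat3 in footprints, and 8 changed sign, none of them called: with 1 library left out, Stat6 in RNA ran from -0.0055 to 0.089, Tyk2 in RNA from -0.050 to 0.0097, Jak3 in footprints from -0.036 to 0.075 and Stat6 for translation from -0.018 to 0.084. Without a prior the Jak1 ratio in WT moved from 1.04 to 1.05. The causes were not tested. The order of members by footprints per coding length was not run, since coding lengths were not used here. Depth limits Stat4 most among the STAT genes in RNA, with 124 to 375 reads a library.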
